A study of Mus musculus with 2 samples.

Results

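The prostaglandin E2 receptor genes Ptger2 and Ptger4, the phosphodiesterase genes Pde4b and Pde4d, the transcription factor genes Creb1 and Crem, and the nuclear receptor genes Nr4a1, Nr4a2 and Nr4a3 were followed across the cell classes of mouse tumours. These 9 genes, of 32285 gene models in the count tables, stand for the cyclic AMP (cAMP) response from receptor to target gene. They were chosen by their measured levels (CPM, defined below) and detection in 5 gated cell classes of these same libraries, so the values below are a description, and none of them is support for the choice. Each gene was found once by its symbol.

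The study compared tumours of a group given cepharanthine (CEP), a plant alkaloid, with tumours of a vehicle group (Vehicle, spelled "Vehide" in its label). Cells were freed with collagenase D and DNase I, selected for the leukocyte protein CD45 and read as 3′ droplet libraries, 1 library per group. The design states 5 biological replicates per group, but the labels do not say which animal gave which cell, and tumour model, mouse strain, age, dose and schedule are not given in the sources used here. Each group was therefore 1 sample, no test between groups was made, and each interval below is a 95% interval that covers counting error only, not the spread between animals or library preparations.

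Signals such as prostaglandin E2 act on receptors that couple to the stimulatory G protein, adenylyl cyclases then make cAMP, and cAMP switches on protein kinase A. The kinase phosphorylates CREB (gene Creb1), which drives genes with a cAMP response element, among them the Nr4a genes and a short form of Crem that represses the same elements. Phosphodiesterases of the PDE4 family break cAMP down and are themselves induced by it. In tumours, prostaglandin E2 is known for restraining T cells and for shaping macrophages, neutrophils and dendritic cells, while Nr4a genes also answer other stimuli, including antigen receptor signals and tissue digestion.

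The Nr4a genes are textbook targets of CREB, which is why the DNA before their starts is shown. RefSeq windows (GRCm38.p6) of 250 bases before each start were found for 8 of the 9 genes, with Crem named only, and were searched for the core motif TGACG, which reads CGTCA when it lies on the other strand, and for the full site TGACGTCA, which contains both. Nr4a1, Nr4a2 and Nr4a3 each held 4 core motifs and no full site. The Nr4a1 sequence is chr15:101266596-101266845, plus strand, within an intron of a longer Nr4a1 transcript. The Nr4a2 sequence is chr2:57124004-57124253, minus strand, outside annotated genes. The Nr4a3 sequence is chr4:48045055-48045152, plus strand, only the 98 bases of its window that lie before an annotated exon, so 3 of its 4 core motifs are shown. Sequences run 5′ to 3′ and capitals mark core motifs, seen as CGTCA where they lie on the other strand.
Nr4a1: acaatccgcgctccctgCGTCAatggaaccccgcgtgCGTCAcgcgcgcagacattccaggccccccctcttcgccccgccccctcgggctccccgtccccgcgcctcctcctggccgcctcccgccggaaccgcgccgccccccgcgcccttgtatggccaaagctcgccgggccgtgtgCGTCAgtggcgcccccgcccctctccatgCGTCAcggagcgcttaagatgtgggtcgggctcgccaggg
Nr4a2: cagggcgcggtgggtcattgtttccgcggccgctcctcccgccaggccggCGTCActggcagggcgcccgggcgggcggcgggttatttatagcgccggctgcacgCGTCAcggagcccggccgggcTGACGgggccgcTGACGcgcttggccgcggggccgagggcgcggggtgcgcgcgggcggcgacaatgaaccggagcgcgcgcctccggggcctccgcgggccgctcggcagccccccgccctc
Nr4a3: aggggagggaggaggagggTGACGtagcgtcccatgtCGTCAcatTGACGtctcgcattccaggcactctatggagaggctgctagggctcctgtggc
Core motifs began 233, 213, 69 and 40 bases before the start in Nr4a1, at 200, 144, 123 and 111 in Nr4a2 and at 231, 213, 205 and 147 in Nr4a3. In Pde4b 1 of 4 windows held a core motif, and the windows of Creb1, Pde4d, Ptger2 and Ptger4 held none. Among 32851 RefSeq windows of the same length, 17.8% held at least 1 core motif, 45 (0.137%) held at least 4 and 1.55% held the full site. These matches are letters in a window, not measured binding, and their part in any difference between the libraries was not tested.

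Cells were placed in 5 classes by raw counts of unique molecular identifiers (UMIs, 1 per captured transcript) of genes outside the set: complement C1q genes for macrophages, Csf3r and Cxcr2 for neutrophils, Cd3 genes for T cells, Flt3 for dendritic cells and Krt8 and Krt18 for epithelial cells. The macrophage gate held 4706 CEP and 5160 Vehicle cells, the neutrophil gate 1687 and 2143, the T gate 172 and 271, the dendritic gate 92 and 98 and the epithelial gate 834 and 133. Of the 9544 and 9932 cells kept, 2107 and 2168 passed no gate, and 136 barcodes were shared by the libraries. Levels are given as CPM, the UMIs of a gene per 1000000 UMIs of the class, with no division by length, since 3′ libraries give 1 count per captured transcript. In such sums, fewer cells that express a gene and less RNA per cell cannot be told apart. In each library, markers not used by the gates had their highest summed level in the gate of their own name. For example, 8 macrophage markers summed to 16594 and 17079 CPM in the macrophage gate and to at most 1290 CPM elsewhere.

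Some gates also held other cells, and this touches the results for neutrophils and T cells most. In the neutrophil gate, 6 fibroblast markers summed to 1414 CPM in CEP and 10.4 CPM in Vehicle, and 28 of its CEP cells against 5 of its Vehicle cells also passed the epithelial gate. In the T gate, neutrophil transcripts were abundant, with S100a8 at 33.3% of its neutrophil level in CEP and 37.4% in Vehicle, and fibroblast markers summed to 439 and 1277 CPM. Ratios are therefore also given with mixed cells left out, meaning cells with keratin, collagen or S100a8 and S100a9 counts that go against their gate. This step was chosen after seeing the data and left 4550 and 5118 macrophage, 1477 and 1881 neutrophil and 154 and 245 T cells.

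Ptger2 and Ptger4, the receptors that pass the prostaglandin E2 signal to cAMP, were the least abundant genes of the set in macrophages together with Pde4d. Ptger4 was highest in dendritic cells, at 71.5 CPM (55.4 to 90.8) in CEP and 73.6 CPM (58.2 to 91.8) in Vehicle. It was next in T cells at 22.7 and 27.4 CPM, then macrophages at 12.9 and 12.2 CPM, neutrophils at 6.09 and 7.68 CPM and epithelial cells at 0.646 and 0.524 CPM. Neighbours in that order had intervals that did not overlap. In the T gate of both libraries and the neutrophil gate of CEP the level lay within reach of free RNA from other cells, as judged from the share of S100a8 or keratin transcripts found outside their own class. Ptger2 was highest in T cells, at 24.9 CPM (15.8 to 37.3) in CEP and 20.1 CPM (12.6 to 30.5) in Vehicle. In macrophages it stood at 3.32 and 3.54 CPM, in neutrophils at 5.48 and 7.0 CPM, in dendritic cells at 4.27 and 10.4 CPM from 4 and 11 UMIs, and in epithelial cells at 0.215 and 0.524 CPM from 5 and 2 UMIs. For both receptors the interval of the ratio between libraries held 0 in every class, so no difference was detectable at this depth.

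Pde4b, which encodes a main cAMP phosphodiesterase of leukocytes, was abundant in all 4 leukocyte gates and 9.35 and 8.65 CPM in epithelial cells. It stood at 255 CPM (241 to 270) in CEP and 301 CPM (287 to 315) in Vehicle neutrophils, 245 and 246 CPM in dendritic cells and 188 and 199 CPM in macrophages. In T cells it was 144 CPM (120 to 171) in CEP and 227 CPM (200 to 257) in Vehicle, so the CEP level was lower with intervals apart. The log2 ratio, CEP over Vehicle, was -0.66 (-0.97 to -0.35). That T cell value was -0.69 (-1.04 to -0.35) with mixed cells left out. The neutrophil ratio of -0.24 (-0.34 to -0.13) turned to 0.05 (-0.07 to 0.16) once mixed cells were left out, and the macrophage ratio of -0.08 (-0.12 to -0.04) to -0.02 (-0.05 to 0.02). Pde4d, a second PDE4 gene, was a T cell gene here: 77.9 CPM (60.9 to 98.1) in CEP and 90.6 CPM (73.6 to 110) in Vehicle T cells, against 5.51 to 18.1 CPM in the other 4 gates. Its interval of the ratio held 0 in each class. Pde4b spans 519717 bases and Pde4d 1503514 bases on GRCm38, so their levels depend on whether intronic reads were counted, which could not be learned from the labels or files.

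Creb1, the activator that protein kinase A phosphorylates, had overlapping intervals between all neighbours in the order of its levels. Its level ran from 24.2 to 30.5 CPM in macrophages, neutrophils and epithelial cells of either library. In T cells it was 59.5 CPM (44.8 to 77.4) in CEP and 37.5 CPM (26.9 to 50.9) in Vehicle, from 55 and 41 UMIs. The log2 ratio there was 0.67 (0.06 to 1.29), and its interval held 0 with mixed cells left out, at 0.66 (-0.02 to 1.34). In cells thinned to 1000 UMIs the direction turned, at -0.05. In the other 4 gates the interval held 0.

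Crem, the CREB relative whose short form damps the response, was higher in CEP in macrophages and in dendritic cells. In macrophages it was at 81.8 CPM (79.4 to 84.3) in CEP and 57.8 CPM (55.9 to 59.7) in Vehicle, from 4243 and 3563 UMIs. The 2 intervals were far apart, with a log2 ratio of 0.50 (0.44 to 0.57), or 1.42-fold (1.35 to 1.48). Dendritic cells had a ratio of like size but wide interval, at 108 CPM (87.8 to 131) in CEP and 73.6 CPM (58.2 to 91.8) in Vehicle, which gave a log2 ratio of 0.55 (0.11 to 1.0) from 101 and 78 UMIs.

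In T cells, where Crem was highest, both libraries stood at 146 CPM. Epithelial cells had 12.4 CPM (11 to 13.9) in CEP and 13.4 CPM (9.95 to 17.6) in Vehicle. Neutrophils had 45.9 CPM (40.1 to 52.2) in CEP and 44.9 CPM (39.7 to 50.7) in Vehicle, and with mixed cells left out 52.6 and 43.1 CPM, a log2 ratio of 0.29 (-0.01 to 0.58). In CEP the order was T cells, dendritic cells, macrophages, neutrophils and epithelial cells, with overlapping intervals between the first 2. Vehicle had the same order, with overlap between dendritic cells and macrophages. Macrophages supplied 76.5% of all Crem UMIs in CEP and 77.2% in Vehicle. Of the UMIs of all genes they held 51842518 of 88655557 in CEP and 61626300 of 81159657 in Vehicle, a smaller part in CEP. Counts per gene do not separate the short form of Crem from its other transcripts.

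Nr4a1, an early response gene also known as Nur77, had the highest level of the 9 genes in each of the 5 classes in both libraries. In neutrophils, though, its intervals overlapped those of Pde4b, at 252 to 281 against 241 to 270 CPM in CEP and 298 to 327 against 287 to 315 CPM in Vehicle. With mixed cells left out Pde4b was ahead in neutrophils, at 315 and 305 CPM (CEP and Vehicle) against 265 and 268 CPM. Nr4a1 was at 385 CPM (380 to 390) in CEP and 322 CPM (318 to 327) in Vehicle macrophages, a log2 ratio of 0.26 (0.23 to 0.29), and at 531.5 CPM (486 to 580) and 461 CPM (421 to 504) in dendritic cells, a ratio of 0.20 (0.02 to 0.39). Epithelial cells had 207 CPM (201 to 213) in CEP and 155 CPM (143 to 168) in Vehicle, a ratio of 0.42 (0.29 to 0.54), but -0.52 in cells thinned to 1000 UMIs.

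In T cells Nr4a1 was lower in CEP, at 359 CPM (322 to 400) against 525 CPM (483 to 570), with intervals apart. The ratio was -0.55 (-0.75 to -0.35), -0.56 (-0.77 to -0.34) with mixed cells left out and -0.52 (-0.72 to -0.31) without the single cell of highest count in each library. As a mean over cells, which gives shallow cells the same weight as deep ones, the T cell ratio was -0.12, and in thinned cells it was -0.33. The share of T cells with an Nr4a1 UMI was not lower in CEP as deposited, at 58.1% (50.4 to 65.6%) against 49.8% (43.7 to 55.9%). It was 26.9% of 160 against 30.7% of 257 cells thinned to 1000 UMIs and 44.9% of 118 against 44.1% of 179 cells thinned to 2000 UMIs. Neutrophils had 267 CPM (252 to 281) in CEP and 312 CPM (298 to 327) in Vehicle. That ratio of -0.23 (-0.33 to -0.12) was -0.02 (-0.14 to 0.11) with mixed cells left out.

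Nr4a2, the family member called Nurr1, was highest in dendritic cells at 330 CPM (294 to 369) in CEP and 262 CPM (232 to 295) in Vehicle, which gave a log2 ratio of 0.33 (0.09 to 0.57). Macrophages had 125 and 114 CPM, a ratio of 0.14 (0.09 to 0.19), and epithelial cells 67.2 and 51.6 CPM, a ratio of 0.38 (0.17 to 0.60), which was -0.09 in thinned cells. T cells had 122 and 109 CPM, with intervals that overlapped. Neutrophils had 53.4 CPM (47.1 to 60.2) in CEP and 38.9 CPM (34.0 to 44.3) in Vehicle, a ratio of 0.45 (0.19 to 0.72). It was 0.61 (0.22 to 0.99) with mixed cells left out, but 0.06 in thinned cells and 0.10 as a mean over cells, both under the fold used below.

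Nr4a3, also known as Nor1, was highest in dendritic cells too, at 375 CPM (336 to 416) in CEP and 304 CPM (272 to 339) in Vehicle. Macrophages had 138 CPM (135 to 141) in CEP and 109 CPM (107 to 112) in Vehicle, which gave a log2 ratio of 0.34 (0.29 to 0.39). The T cell levels were 159 and 197 CPM and the interval of the ratio, -0.31 (-0.62 to 0.00), just held 0. That ratio was -0.24 (-0.57 to 0.08) without the single cell of highest count in each library. With mixed cells left out it was -0.25 (-0.57 to 0.06). In epithelial cells Nr4a3 was nearly absent, at 3.88 CPM from 90 UMIs and 4.98 CPM from 19 UMIs. Neutrophils had 80.8 and 74.3 CPM, a ratio of 0.12 (-0.08 to 0.32). With mixed cells left out the neutrophil levels were 91.2 and 59.2 CPM, a ratio of 0.62 (0.39 to 0.86).

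**Figure D1:**
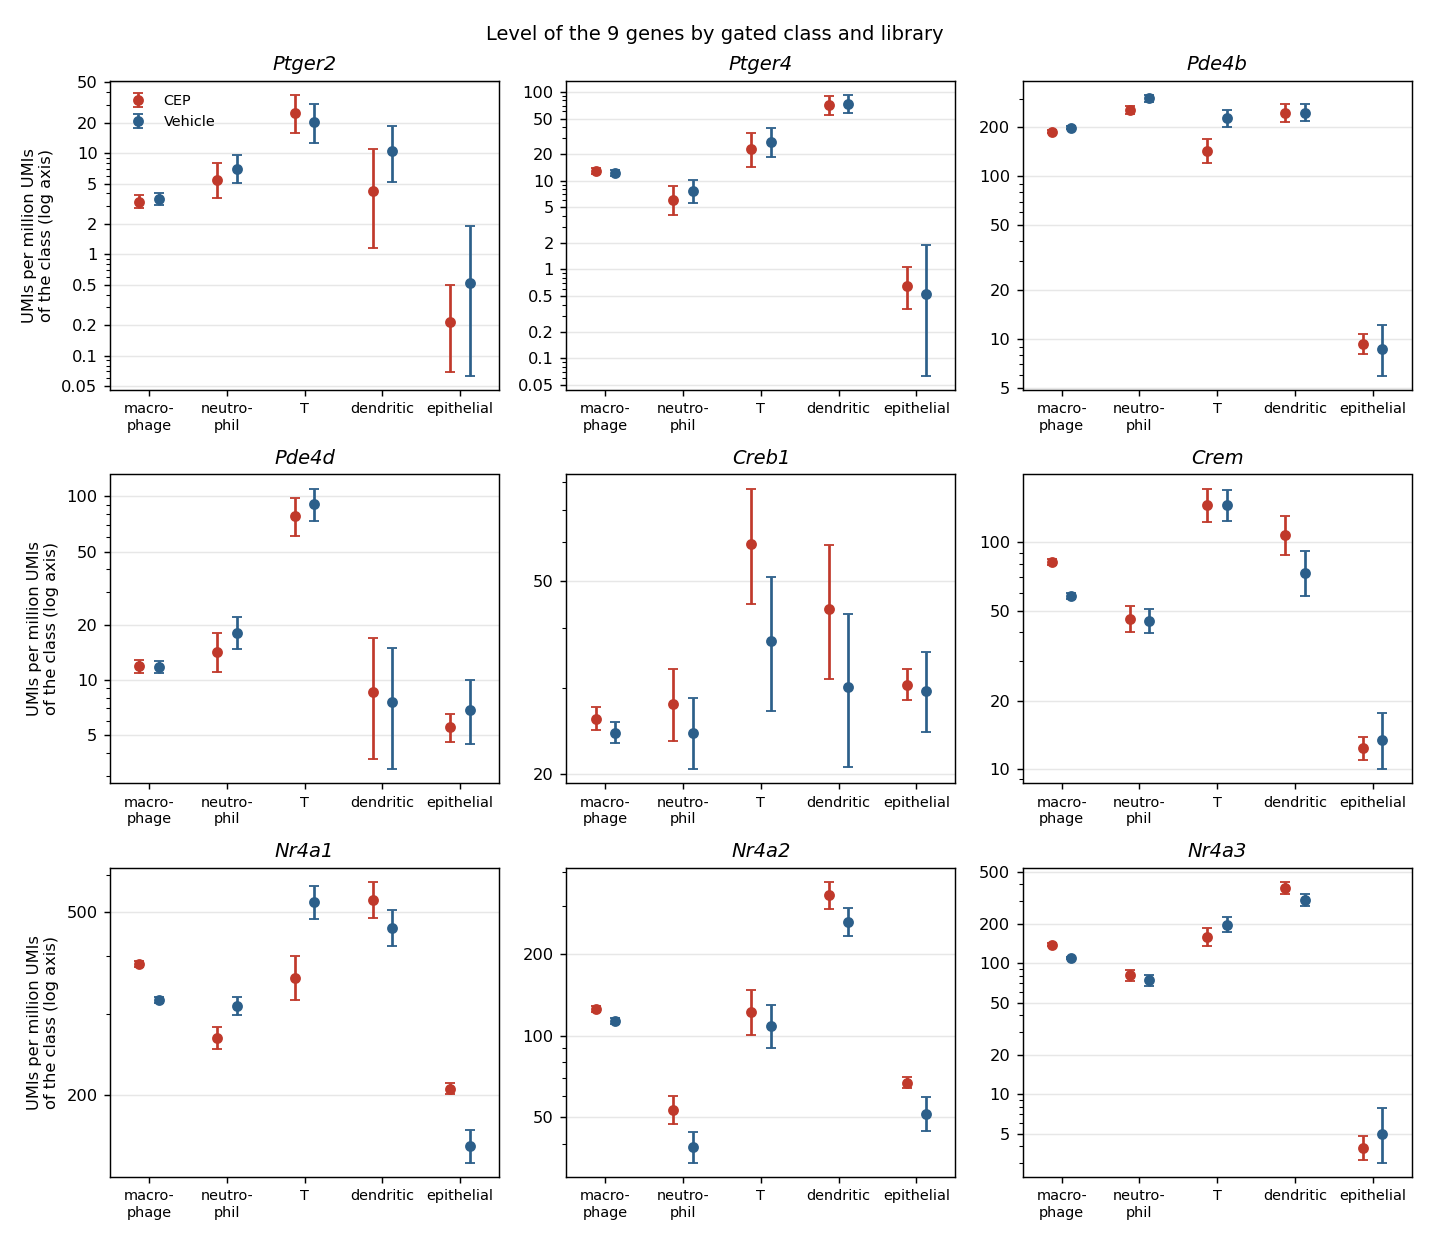
Level of each gene in UMIs per 1000000 UMIs of the class (log axis, scaled for each gene) in the 5 gates, with CEP in red and Vehicle in blue and bars for the exact Poisson 95% interval of each of the 2 libraries. Crem separates the libraries in macrophages, at 81.8 against 57.8 CPM, and Nr4a1 in T cells in the other direction, at 359 against 525 CPM.

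The 9 genes were next read against all genes by the fold used to count differences, a log2 ratio beyond 0.32 in either direction. In macrophages all 9 had at least 50 UMIs over both libraries, 2 of them (Crem and Nr4a3) were higher in CEP by that fold and none was as much lower, while 11.5% of 12764 genes were higher and 4.9% lower by that fold. The median log2 ratio of the 9 was 0.10 beside 0.02 for all genes. With mixed cells left out, Crem (0.56, 0.50 to 0.63) and Nr4a3 (0.41, 0.36 to 0.46) were again past the fold, and 5.28% of all genes were higher.

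In the neutrophil gate all genes were shifted up in CEP by a median log2 ratio of 0.12, with 35.1% of 8367 genes past the fold upward and 9.29% downward. Of the 9 genes, Nr4a2 was higher and Pde4d, Ptger2 and Ptger4 were lower, the last 3 with intervals that held 0, and the median was -0.23. With mixed cells left out the shift of all genes was -0.01, Nr4a2 and Nr4a3 were past the fold upward and none downward, beside 9.22% and 11.5% of all genes. The 13 mitochondrial transcripts also differed in this gate, with 12 past the fold upward, and the part of this difference in the ratios of the 9 genes was not tested.

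In T cells 8 of the 9 genes had at least 50 UMIs. Creb1 was past the fold upward, where 18.9% of 5071 genes were, and Nr4a1 and Pde4b downward, where 19.2% were. In dendritic cells 7 genes had enough UMIs, and Crem, Creb1 and Nr4a2 were past the fold upward beside 14.9% of 4757 genes, with none downward beside 15.3%. In epithelial cells, again with 7 genes, Nr4a1 and Nr4a2 were past the fold upward beside 9.46% of 10869 genes and Nr4a3 downward beside 12.3%, the last with an interval that held 0. Ptger2 was under 50 UMIs in T, dendritic and epithelial cells, Pde4d in dendritic cells and Ptger4 in epithelial cells.

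**Figure D2:**
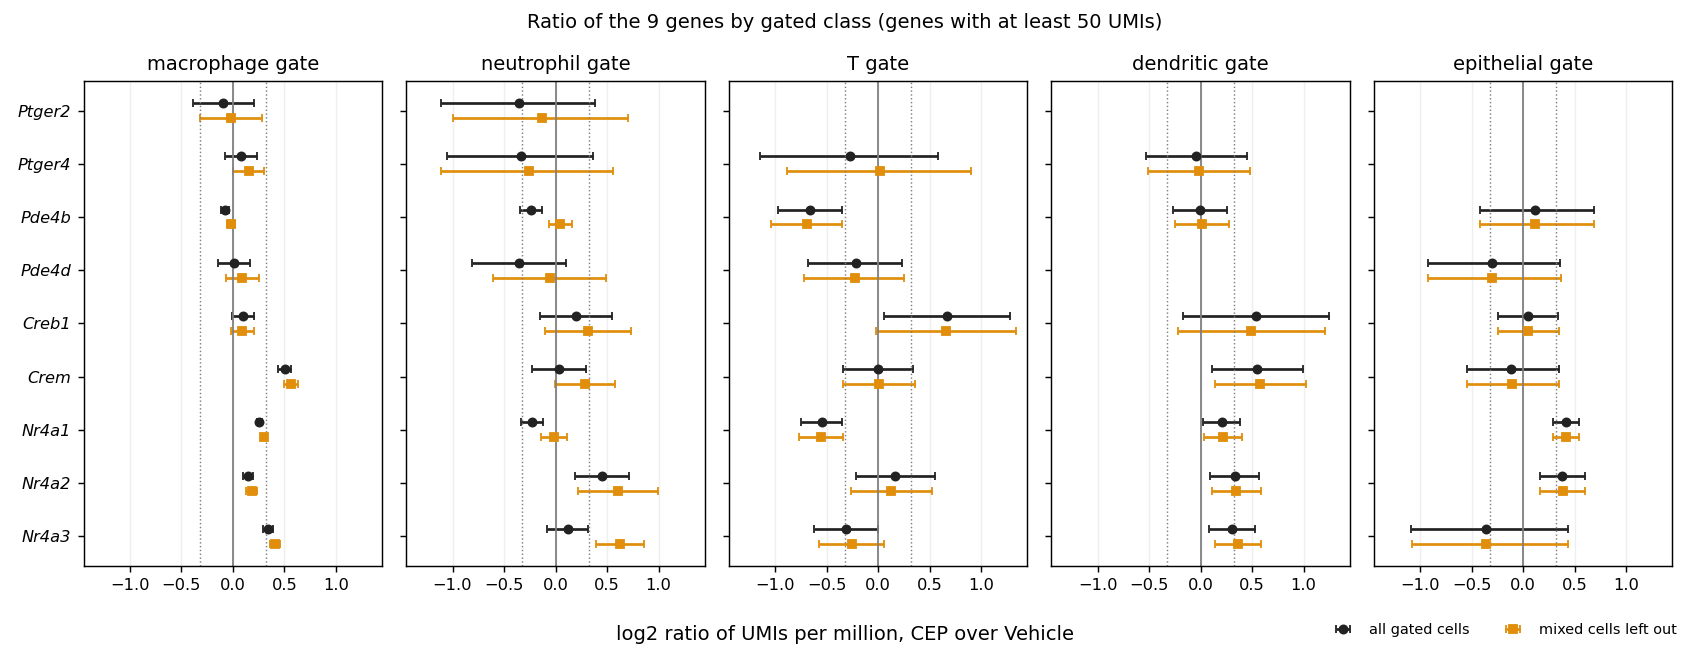
Log2 ratio of CPM, CEP over Vehicle, for genes with at least 50 UMIs in each gate, with all gated cells (black circles) and with mixed cells left out (orange squares). Bars are exact 95% intervals for counting error, dotted lines mark the fold of 0.32 on the log2 scale, and in neutrophils Nr4a3 (0.12 and 0.62) and Pde4b (-0.24 and 0.05) differ between the 2 sets of cells.

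The share of macrophages with a Crem UMI is a second reading of the same counts, not separate support for the difference in level. As deposited, 45.4% of CEP macrophages and 39.5% of those in Vehicle held a Crem UMI, while the median cell held 10017 and 11228.5 UMIs. With every cell thinned to 1000 UMIs, which left out 31 CEP and 28 Vehicle macrophages as too shallow, the shares were 8.21% (7.44 to 9.04%) and 5.96% (5.33 to 6.65%). Epithelial cells, where the Crem level was lowest, had 1.56% of 834 CEP and 0.752% of 133 Vehicle cells at that depth. Too few of these cells held a UMI for the 2 shares to be compared. Macrophages with 3 or more Crem UMIs made up 11% of CEP and 7.15% of Vehicle cells as deposited. Thinned shares of macrophages with a UMI were 12.3% and 9.57% for Nr4a3 and 28.8% and 24.3% for Nr4a1, whereas for Pde4b they were 17.9% and 17.8%.

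Macrophages were next split into quartiles of total UMIs, of mitochondrial share and of the summed level of 24 immediate early and heat shock genes that tissue digestion is known to induce. Each measure split the same macrophages anew, so the 12 quartiles overlap and are not independent. Crem was higher in CEP in 12 of 12 quartiles, each with an interval above 0. Its log2 ratio ran from 0.42 to 0.58 over depth, from 0.30 to 0.51 over mitochondrial share and from 0.30 to 0.67 over immediate early level. Nr4a3 was higher in 12 of 12 quartiles, 11 with an interval above 0, and was lowest, at 0.08, in the quartile of highest immediate early level. Nr4a1 was higher in 12 of 12 quartiles, 11 with an interval above 0, and its ratio within quartiles of immediate early level, 0.06 to 0.21, lay below the 0.26 of all macrophages. Nr4a2 was higher in 10 of 12 and Pde4b in 1 of 12. In dendritic cells split in the same way, Crem was higher in CEP in 10 of 12 quartiles, only 2 with an interval above 0. The dendritic ratios of Crem ran from -0.49 to 1.40.

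Subsets of macrophages, gated on genes outside the set and overlapping one another, were then compared. Crem was higher in CEP in 7 of 7 subsets, 5 with an interval above 0. Macrophages rich in MHC class II, the antigen presentation genes, had 89.3 and 61.3 CPM, a log2 ratio of 0.54 (0.47 to 0.62). Those with Arg1, which encodes arginase, had 87.9 and 62.9 CPM, and those without it 72.4 and 51.1 CPM, ratios of 0.48 and 0.50. Cycling macrophages, with Mki67 or Top2a, had lower levels of 56.9 and 45.3 CPM and a ratio of 0.33 (0.19 to 0.47). In Gpnmb and Cd163 macrophages, small subsets, the ratios of 0.36 (-0.18 to 0.93) and 0.27 (-0.09 to 0.63) had intervals that held 0. Nr4a1, Nr4a2 and Nr4a3 were each higher in 6 of 7 subsets, with intervals above 0 in 5, 3 and 5 of them. Their lowest ratios were -0.19 for Nr4a1, -0.02 for Nr4a2 and, in Cd163 macrophages, -0.16 (-0.45 to 0.13) for Nr4a3. None of these intervals lay below 0. Ptger4 was 29.5 and 14.4 CPM in Cd163 macrophages, a ratio of 1.03 (0.44 to 1.63).

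Cells with the monocyte genes Ly6c2 or Plac8 and little C1q had Crem levels with overlapping intervals. Outside the 5 gates they numbered 424 in CEP and 469 in Vehicle, with Crem at 71.9 and 71.0 CPM, a log2 ratio of 0.02 (-0.28 to 0.31). Pde4b was lower in these cells of the CEP library, at 195 against 260 CPM, a ratio of -0.41 (-0.58 to -0.25), while Nr4a3 was 141 against 118 CPM, a ratio of 0.26 (0.04 to 0.48). The difference between monocytes and macrophages in these ratios was not tested.

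**Figure D3:**
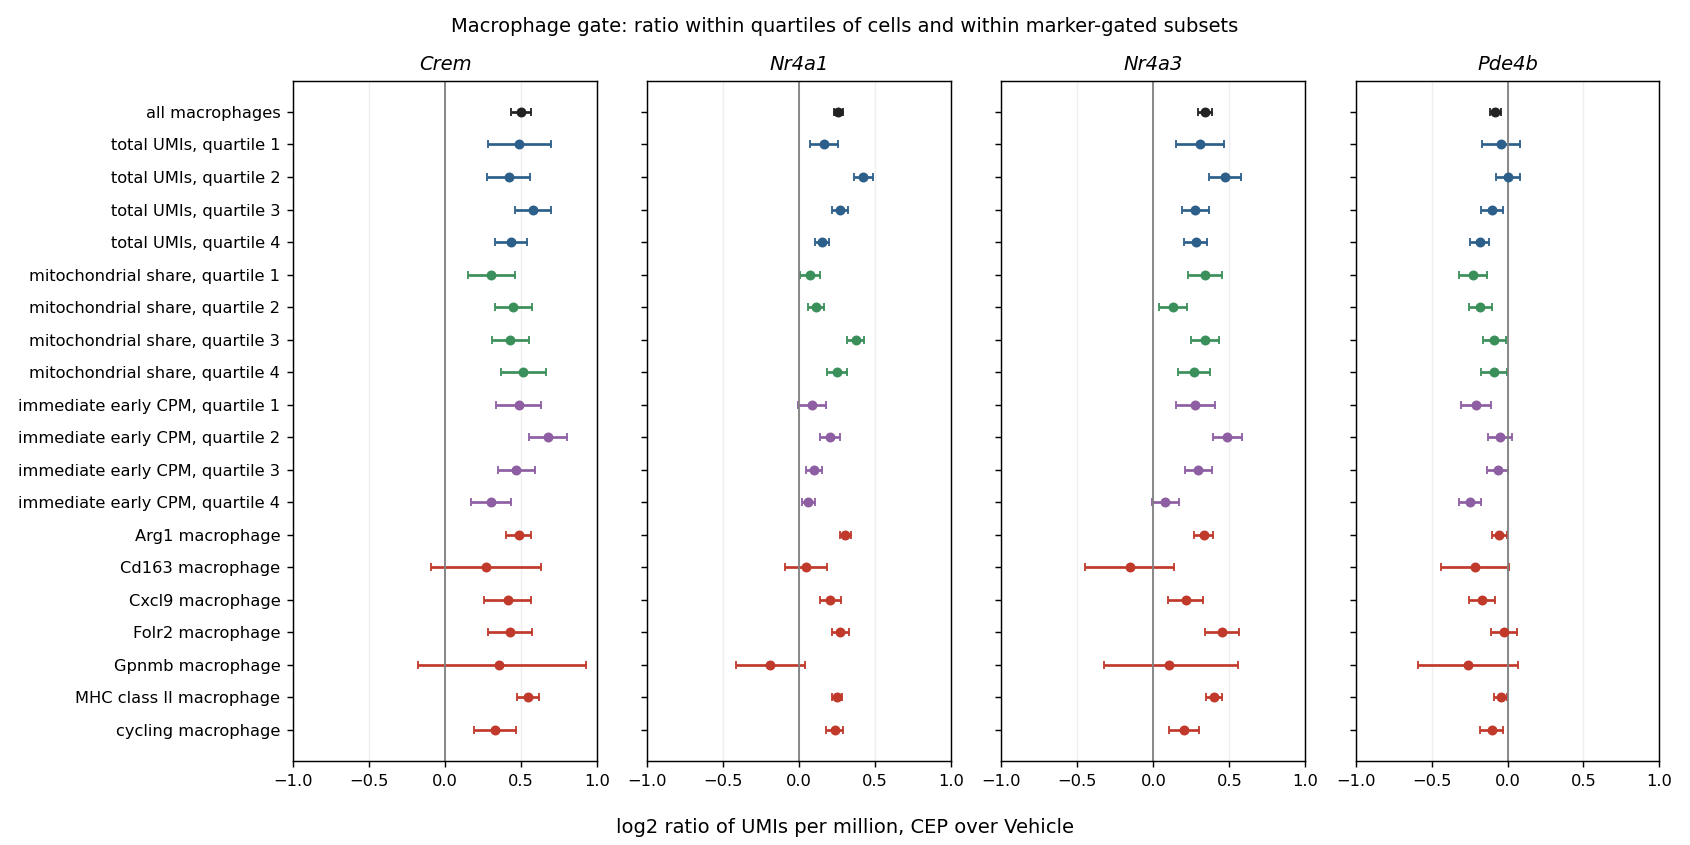
Log2 ratio of CPM, CEP over Vehicle, of 4 genes in all macrophages (black), in quartiles of total UMIs (blue), mitochondrial share (green) and immediate early level (purple), and in 7 overlapping subsets (red), with exact 95% counting intervals. Crem lies above 0 in the 12 quartiles, drawn from the same cells for each measure, and in the 7 subsets, from 0.27 to 0.67. Pde4b lies near or below 0.

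Within single macrophages thinned to 1000 UMIs, the Nr4a genes and Pde4b were found more often in cells that held a Crem UMI. Nr4a3 was found in 20.8% of 384 Crem cells and in 11.5% of the other CEP cells, and in 14.7% of 306 and 9.24% of the rest in Vehicle. Nr4a2 was found in 14.8% against 10.5% in CEP and 15.4% against 9.01% in Vehicle, and Pde4b in 25% against 17.2% and 23.9% against 17.4%. Creb1 was found in 2.08% of Crem cells and 2.49% of the rest in CEP, and its Vehicle shares are not reported here. Shares of genes outside the set are not reported here either, so the pattern cannot be called particular to these genes. Cells of 1 library are not replicates, so these shares describe the libraries.

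T cells were divided into CD8, Foxp3 and other T cells, the last with neither Cd8 genes nor Foxp3 and numbering 102 in CEP and 167 in Vehicle. In other T cells Nr4a1 was at 483 and 729 CPM, a log2 ratio of -0.60 (-0.85 to -0.34), and Pde4b at 172 and 278 CPM, a ratio of -0.69 (-1.12 to -0.27), and Nr4a3 at 151 and 227 CPM, a ratio of -0.58 (-1.05 to -0.13), so each was lower in CEP. In CD8 T cells, the cytotoxic type, Nr4a1 stood at 219 and 233 CPM and Pde4b at 138 and 156 CPM, both with ratio intervals that held 0. In Foxp3 T cells, the regulatory type, Nr4a1 was at 380 and 364 CPM, and Pde4b at 87.2 and 176 CPM from 17 and 28 UMIs, a ratio of -1.01 (-1.97 to -0.09). Differences between T cell subsets in these ratios were not tested, and the subsets were not read without their cells of highest count. Neutrophil markers in the whole T gate summed to 26777 CPM in CEP and 41722 CPM in Vehicle, and their part in these values was not tested beyond the ratios without mixed cells above.

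Neutrophil subsets were higher in Nr4a2 in CEP in 3 of 3 cases, each with an interval above 0. These subsets do not stand for the whole gate, which had a smaller log2 ratio of 0.45 (0.19 to 0.72). Levels in neutrophils outside each subset are not reported here. Neutrophils with the chemokine genes Ccl3 or Ccl4 had 82.3 and 35.7 CPM, those with Retnlg or Lcn2 36.0 and 15.3 CPM, and those with the interferon-induced Rsad2 or Ifit1 had 37.8 and 12.1 CPM from 26 and 11 UMIs. The log2 ratios were 1.21 (0.71 to 1.72), 1.23 (0.76 to 1.72) and 1.64 (0.57 to 2.80). In the same order Nr4a1 had ratios of 0.10, -0.03 and 0.38, and of Crem each ratio interval held 0. Fibroblast and epithelial transcripts within these subsets were not measured apart.

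Levels varied between the dendritic cell subsets, which overlap. Mature dendritic cells, gated on Ccr7 and Fscn1, held Nr4a3 at 591 CPM (CEP) and 687 CPM (Vehicle), while cDC1, the cross-presenting type gated on Xcr1 and Clec9a, held 182 and 117 CPM. Nr4a1 had the opposite order, at 313 and 272 CPM in mature dendritic cells and 679 and 573 CPM in cDC1. Ptger4 was at 127 and 165 CPM in mature dendritic cells, 57.3 and 54.7 CPM in cDC2 and 25.1 and 35.3 CPM in cDC1. Nr4a2 separated the libraries in cDC2, at 456 and 285 CPM, a ratio of 0.68 (0.36 to 1.01), and in mature cells, at 272 and 187 CPM, a ratio of 0.54 (0.07 to 1.03), and stood at 336 and 313 CPM in cDC1. Crem was at 122 against 93.1 CPM in cDC1, 101 against 76.6 CPM in cDC2 and 76.4 against 53.8 CPM in mature cells, and each of these ratios had an interval that held 0.

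**Figure D4:**
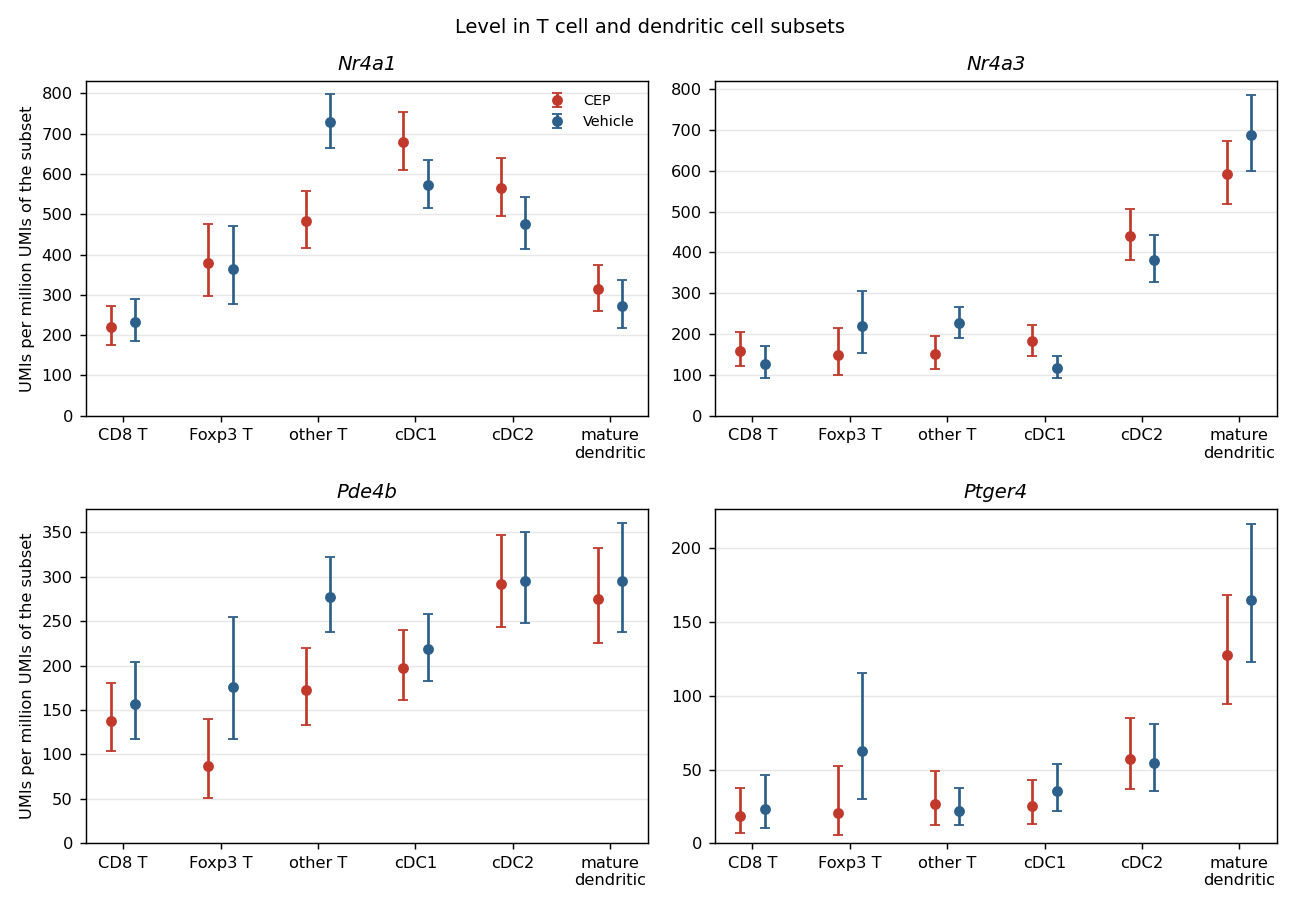
Level of Nr4a1, Nr4a3, Pde4b and Ptger4 in UMIs per 1000000 UMIs of each subset, with exact Poisson 95% intervals, CEP in red and Vehicle in blue. Nr4a1 separates the libraries in T cells without Cd8 genes or Foxp3 (483 against 729 CPM), and mature dendritic cells have the highest Nr4a3 and Ptger4 of the 6 subsets in both libraries.

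The other genes of the pathway were read in macrophages from lists written with earlier results of these data known, and each count stands beside the 11.5% of all macrophage genes past the fold upward and 4.9% downward. Among other receptors that raise cAMP, 9 of 12 had at least 50 UMIs, 1 was past the fold upward and 1 downward. The first was Ramp1, a partner of peptide receptors, at 16.5 and 13 CPM, and the second was Adrb1, an adrenergic receptor, at 0.444 and 1.04 CPM. Among genes of cAMP synthesis and protein kinase A, 20 of 22 were measured at that depth, with 2 upward and 1 downward. These were scarce genes: Rapgef3, a cAMP sensor, at 1.20 and 0.276 CPM, and the cyclases Adcy6 at 0.945 and 0.454 CPM and Adcy4 at 0.656 and 1.28 CPM. With mixed cells left out, none of the receptors and none of the synthesis genes was past the fold upward. Of 11 other phosphodiesterases at that depth, of 12 listed, 1 (Pde8b, 1.29 and 0.957 CPM) was past the fold upward, and of the 13 CREB relatives, coactivators and salt-inducible kinases none was in either direction.

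The textbook CREB target genes had 24 of 25 at that depth, 4 past the fold upward and none downward, beside 11.5% and 4.9% of all genes, with a median log2 ratio of 0.16 beside 0.02. The 4 were Gem, a small GTPase, at 11.7 and 7.38 CPM (0.67), Il10, an anti-inflammatory cytokine, at 3.18 and 2.13 CPM (0.58), the transcription factor gene Klf4 at 134 and 97.7 CPM (0.46) and Irs2, an insulin receptor substrate, at 62.9 and 49.4 CPM (0.35). Of the immediate early and heat shock genes, 6 of 24 were past the fold upward and none downward, with a median of 0.22, among them Egr3 (0.57), Fosb (0.42), Jun (0.41) and Jund (0.39). The 13 mitochondrial transcripts had 2 upward and a median of 0.19. Whether digestion or RNA quality has a part in the Crem and Nr4a values was not tested beyond the quartiles above.

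**Figure D5:**
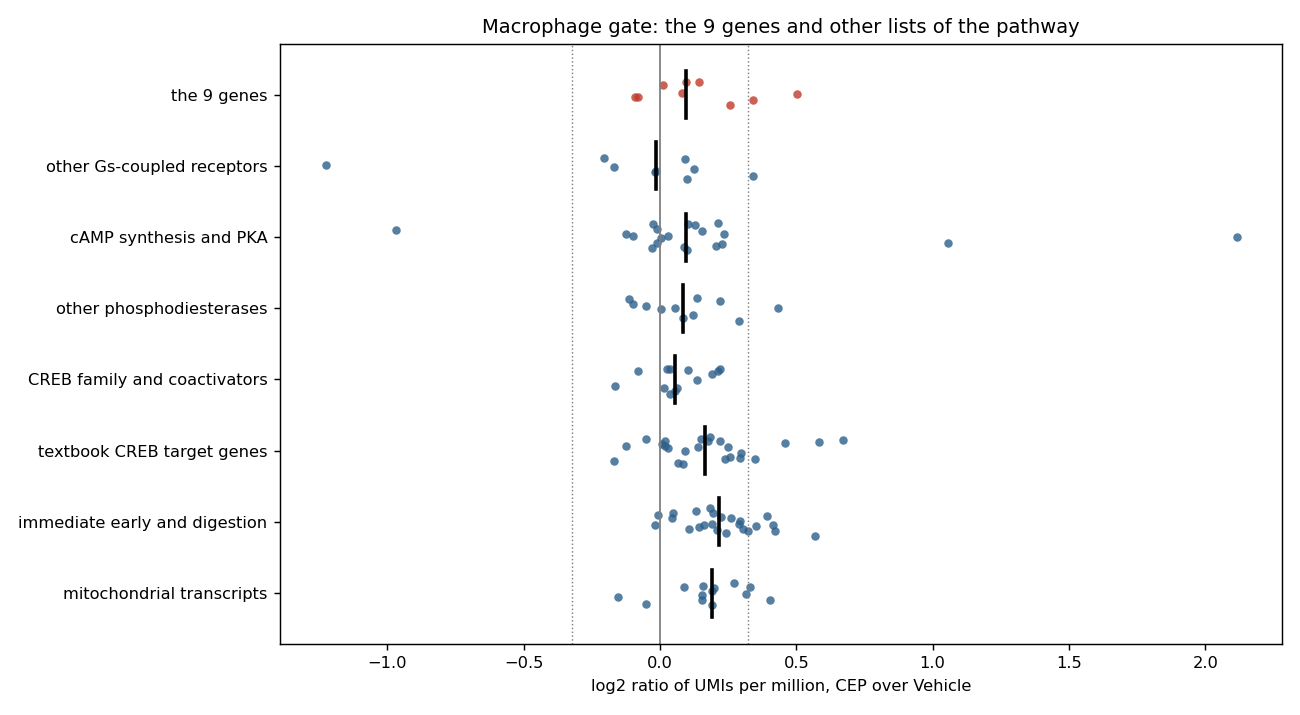
Log2 ratio of CPM, CEP over Vehicle, in macrophages, 1 point per gene with at least 50 UMIs, black bars for each list's median and dotted lines at the fold of 0.32 on the log2 scale. The list medians lie between -0.01 and 0.22, and Crem at 0.50 is the rightmost of the 9 genes.

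In neutrophils, where 35.1% of all genes were past the fold upward and 9.29% downward, the lists' upward counts of synthesis genes and targets lay below that share. Of 13 synthesis and kinase genes with enough UMIs 4 were past the fold upward, among them Gnas, the stimulatory G protein gene, at 303 and 213 CPM and Prkacb, a kinase subunit, at 24.6 and 8.20 CPM. Of 22 CREB targets 5 were upward, led by Gem at 15.8 and 3.42 CPM, and 1 downward, Rgs2, a regulator of G protein signals, at 95.0 and 127 CPM. Ramp1 was at 28.6 and 7.68 CPM, Adora2b, an adenosine receptor gene, at 21.5 and 28.5 CPM, and Ep300, a CREB coactivator, at 47.7 and 66.6 CPM. Without mixed cells 1 of 11 synthesis genes and 2 of 21 targets were upward, beside 9.22% of all genes. Beside these counts stand the fibroblast and epithelial transcripts of the CEP neutrophil gate given above, whose part was not tested further.

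In the smaller classes the CREB targets were split between directions, and genes named here fall outside the naming rule and were chosen after their values were seen. In T cells 4 of 23 targets were past the fold upward, among them Klf4 and Arg1, and 7 downward, among them Thbs1, a matrix protein gene, at 63.8 and 168 CPM and Gem at 70.3 and 159 CPM, beside 18.9% of all genes upward and 19.2% downward. Dendritic cells had 6 of 18 upward and 6 downward beside 14.9% and 15.3% of all genes, and epithelial cells 8 of 22 upward and 7 downward beside 9.46% and 12.3%. The 3 other phosphodiesterases with enough UMIs in T cells, Pde2a, Pde3b and Pde7a, were past the fold downward, at -0.76, -0.39 and -0.44, each with an interval that held 0. In dendritic cells, where Crem and the 3 Nr4a genes had intervals above 0, 10 of 21 immediate early and heat shock genes were past the fold upward and 1, Ier3, downward, and the part of digestion in those values was not tested.

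Correlations were taken over the 10 values of 5 classes in 2 libraries, among 1833 genes with at least 50 UMIs in each. The genes that correlated most with Crem included Fau, a ribosomal protein gene (Pearson r = 0.98 on log2 of CPM plus 1), and Tacc1 (0.97). Pearson r takes no account of the size of a change. Fau ran only from 4601 to 5736 CPM over the 10 values, while Crem ran from 12.4 to 146 CPM. The genes that correlated most with Nr4a1 were Pfdn5, a chaperone subunit gene (0.95), Ppp6r1 (0.95) and Id2, a transcriptional regulator gene (0.95). The 10 values come from 2 libraries and 5 gates, so these correlations describe an order of classes.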

How the data were processed

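CD45-selected cells of mouse tumours were read in 1 CEP and 1 Vehicle library. The deposited matrices hold counts, whole UMIs per gene and barcode with no normalization, per the file headers. Per the submitters' processing notes, Cell Ranger 5.0.1 and mm10 were used, while the file headers name version 7.1.0, and neither states the handling of intronic reads. The libraries held 9621 and 9989 barcodes with 88721774 and 81208647 UMIs.

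Barcodes were dropped below 200 genes or above 15% mitochondrial UMIs, and the rest gated on raw UMIs: C1qa, C1qb and C1qc at least 10 (macrophage), Csf3r and Cxcr2 at least 1 with C1q under 3 (neutrophil), Cd3d, Cd3e and Cd3g at least 2 with C1q under 3 (T), Flt3 at least 1 with C1q under 10 (dendritic), and Krt8 and Krt18 at least 10 with C1q under 10 (epithelial). A cell may pass several gates (53 and 41 did). UMIs were summed per gate and library. Levels carry exact Poisson, ratios exact conditional binomial and shares Clopper-Pearson 95% intervals. A level was within reach of free RNA where it did not exceed the gene's highest level in another class times the largest share of Apoe, S100a8, S100a9, Krt8 or Krt18, relative to the class each marks, found in the gate. Mixed cells had under 10 S100a8 and S100a9 UMIs in the neutrophil gate or at least 5% of UMIs from them in another gate, at least 10 keratin UMIs (not applied to the epithelial gate) or at least 10 collagen UMIs (3 for both in the neutrophil and T gates). Leaving them out was chosen after seeing the data. Doublets were scored with Scrublet in scanpy 1.11.5, and removal of cells scoring above the cut for the highest 8% was an alternative. With ties at the cut kept, 702 of 9544 CEP and 778 of 9932 Vehicle cells were removed. Other alternatives were thinning, other filters, gates, weights and scaling. Scripts used Python 3.11.15, numpy 2.4.6, scipy 1.17.1 and pandas 2.3.3, and the ratio code was tested on simulated data. Gene positions are from GENCODE and promoters from RefSeq, both GRCm38.

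The genes and lists were chosen with earlier results of these data known. Named genes are all 9, and of each list up to 4 genes past a log2 ratio of 0.32 in each direction. The lists were read in macrophages and neutrophils, largest first, and the text gives a part of those genes. The rule also names the 3 genes whose levels correlated most with Crem and with Nr4a1. Some genes that these rules name are not reported here.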

Additional observations from a re-analysis of the deposited data

Results flagged for a closer look

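Nr4a1 had ratios of opposite sign in different classes under the same contrast. Its log2 ratio of CPM, CEP over Vehicle, was 0.26 in macrophages, 0.20 in dendritic cells and 0.42 in epithelial cells, but -0.23 in neutrophils and -0.55 in T cells. With 1 library per group this difference between classes was not tested. The neutrophil value was -0.02 with mixed cells left out.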

How the results depend on the processing

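Over 40 ratios (genes with at least 50 UMIs in a gate) and 9 alternatives each, 310 of 360 values stayed within the interval first given and 50 lay outside it. Part of the 310 was fixed in advance, since some alternatives changed no cells. Leaving out cells that pass several gates kept all 4706 CEP and 5160 Vehicle macrophages. Keeping all barcodes, or at most 10% mitochondrial UMIs, left the same 834 CEP and 133 Vehicle epithelial cells. The sign changed in 38 values, 33 of them of ratios whose interval held 0, among them Pde4d in thinned neutrophils (0.58) and Ptger4 in thinned T cells (1.01). Crem in macrophages ran from 0.48 to 0.56 over the alternatives, and Nr4a3 from 0.319 to 0.42, the lowest, just under the fold of 0.322, with the median of all genes taken off. The 5 sign changes of ratios whose interval lay off 0 were, in cells thinned to 1000 UMIs, Creb1 in T cells (-0.053), Nr4a1 (-0.52) and Nr4a2 (-0.094) in epithelial cells and Pde4b in macrophages (0.0070), and, with mixed cells left out, Pde4b in neutrophils (0.047). Crem was 0.36 in neutrophils as a mean over cells and 1.05 in thinned epithelial cells, where few UMIs remained. Among macrophage lists, the count of genes higher in CEP was, for other receptors, 2 with at least 1 UMI and 0 at 1.5-fold, with the median of all genes taken off, or without mixed cells. For cAMP synthesis it was 4 with at least 1 UMI and 0 with at least 200 UMIs or without mixed cells. For phosphodiesterases it was 0 with at least 200 UMIs or at 1.5-fold, for CREB targets 1 at 1.5-fold, for immediate early genes 0 at 1.5-fold, and for mitochondrial transcripts 0 at 1.5-fold and 1 with the median taken off. Lower counts were 0 with at least 200 UMIs for receptors and synthesis genes, and 1 for immediate early genes without mixed cells. The causes of these shifts were not tested. No paired analysis was possible because each group is 1 library. Depth limits Ptger2, Ptger4 and Pde4d outside their highest classes, and the T and dendritic gates, where intervals are wide.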
